A study of Mus musculus with 12 samples.

Results

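The glutathione S-transferases, UDP-glucuronosyltransferases and sulfotransferases of mouse liver, the main conjugating enzymes of phase II metabolism, were followed across 3 groups of mice. The set was defined by name: protein-coding genes called Gst followed by a, k, m, o, p, t or z and a digit, Mgst and a digit, Ugt1, Ugt2 or Ugt3, or Sult and a digit. The rule found 67 of the 55385 features of the expression table, which holds 21856 protein-coding genes. They comprise 25 genes of the Gst family (Mgst included), 21 of the Ugt family and 21 of the Sult family.

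Liver RNA of 12 male C57BL/6 mice was sequenced, 4 in each group. The mice were 7 weeks old, tissue was taken on day 7 after adenovirus, and the total dose stated for each group was 500000000 plaque-forming units of active virus. Control mice (GULL_control) received Ad-Ctrl, made up of the Lac virus and pAdV5. Knockdown mice (mGULL_knockdown) received the short hairpin virus shmGULL, directed at the mouse long noncoding RNA mGULL, together with pAdV5. Rescue mice (hGULL_rescue) received shmGULL together with a virus that expresses the human counterpart, hGULL. Every group thus carried adenovirus, and no uninfected liver is among the groups. The first comparison asks what loss of mGULL does, and the comparisons with rescue mice ask how far hGULL brings a level back. The level of mGULL itself was not analysed here. Values are TPM, which scale every library to the same total, so the depth of each library and the precision it gives are unknown. Replicate numbers 1 to 4 come from the sample titles, and each value below is given in that order. The p-values set a difference of group means against the spread between mice within groups. That spread was estimated over all 3 groups, with information shared across genes.

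Phase II enzymes attach a water-soluble group to drugs, hormones, bile acids and reactive by-products, which can then leave the hepatocyte in bile or urine. Glutathione S-transferases join glutathione to electrophiles, UDP-glucuronosyltransferases of the endoplasmic reticulum attach glucuronic acid, and cytosolic sulfotransferases move sulfate from the donor PAPS. Liver is a main site of all of them, and in mice many are known to differ between the sexes and to respond to xenobiotic receptors or to the antioxidant factor NRF2.

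Several libraries stood apart from the others of their group across the whole table. Control 2 was the lowest of the control mice for 46.8% of the 16378 genes tested and control 1 the highest for 46.2%. Among knockdown mice, knockdown 1 was the lowest for 44.3% of genes and knockdown 2 the highest for 50.5%. Protein-coding genes summed to 772568 TPM in knockdown 1, against 810716 to 852134 TPM in the other 11 mice.

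A gene entered the tests with a mean of at least 1 TPM over the 12 mice, and fold changes are differences of log2(TPM + 1), which understate the change of low genes. Calls followed the study's threshold (an absolute log2 fold change above 0.5 together with unadjusted p below 0.05) and, separately, a Benjamini-Hochberg adjusted p under 0.05 from limma over all genes tested. The 3 comparisons share groups, so their results are not independent of one another. Over all genes tested, the log2 fold change had a median of 0.09 in knockdown against control mice, 0.09 in rescue against knockdown mice and 0.17 in rescue against control mice. Dividing each library by its median ratio to the average library moved these medians to -0.01, 0.01 and -0.01, and members are read against that shift below.

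Of the 67 genes, 48 passed the filter on low values: 22 of 25 Gst genes, 19 of 21 Ugt genes and 7 of 21 Sult genes. The other 19 were below it, and 6 of these were listed at 0 in every mouse (Ugt2a1, Ugt2a2, Sult1c1, Sult2a4, Sult2a5 and Sult3a2). Of those below the filter, Mgst2 had the highest mean, 0.682 TPM, followed by the estrogen sulfotransferase Sult1e1 with 0.400 TPM and Sult2a2 with 0.270 TPM. The Sult family was the one with most genes near 0: only 2 of its 8 Sult2a genes were tested, and none of its Sult1e, Sult2b, Sult3a, Sult4a and Sult6b genes. All 9 Ugt1a, all 7 Ugt2b, all 7 Gstm and all 4 Gsta genes were tested.

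Per unit of transcript length, a few genes carried most of the signal. The Gst family made up 73.2% of the summed TPM of all members, the Ugt family 23.2% and the Sult family 3.56%. The mu-class gene Gstm1 alone held 34.2% of the total, and the 3 most abundant Gst genes, Gstm1, the pi-class Gstp1 and the membrane-bound Mgst1, held 77.9% of the Gst sum. The Ugt family was spread more evenly: Ugt2b5 held 28.9% of its sum, and Ugt2b5, Ugt2b36 and Ugt2b34 together held 58.1%. In the Sult family the bile acid sulfotransferase Sult2a8 held 51.2%, and with the phenol sulfotransferase Sult1a1 and the catecholamine sulfotransferase Sult1d1 it held 94.9%.

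**Figure D1:**
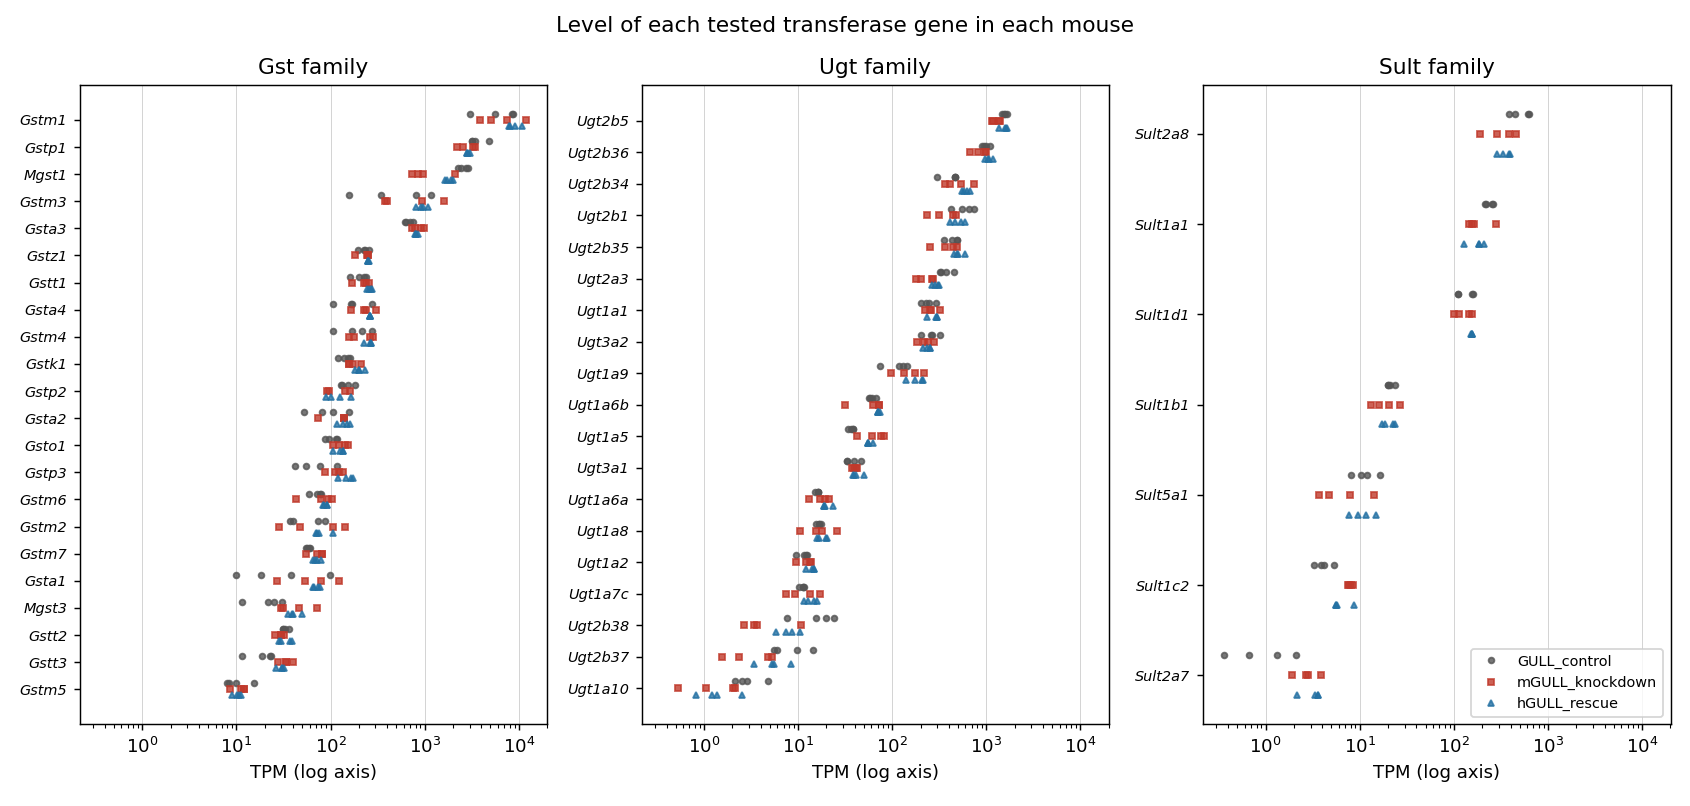
Level of each of the 48 tested genes in each mouse, in TPM on a log axis, for the Gst, Ugt and Sult families; circles are control, squares knockdown and triangles rescue mice. Gstm1 has the highest mean, 7476 TPM, though Gstp1 lies above it in control 2, and the Sult family has 3 genes with a mean above 100 TPM.

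In knockdown against control mice, members moved in both directions, and the families differed in the direction of their calls. At the study threshold 6 of 48 members were higher (12.5%; 5.35% of all genes tested) and 7 lower (14.6%; 2.3% of all genes). At an adjusted p under 0.05, 3 members rose (6.25%; 2.44% of all genes) and 3 fell (6.25%; 0.794% of all genes). At an unadjusted p under 0.05, 10 were higher (20.8%; 15.4% of all genes) and 8 lower (16.7%; 4.80% of all genes). Those that rose were Gstt3, Sult1c2 and Ugt1a5, and those that fell were Mgst1, Ugt2a3 and Ugt2b38. The Gst family had 3 of 22 genes higher (13.6%) and 1 lower (4.55%) at the threshold. The Ugt family had 1 of 19 higher (5.26%, near the share of all genes) and 5 lower (26.3%). The Sult family had 2 of 7 higher (28.6%) and 1 lower (14.3%). Fold changes had a median of 0.27 over the 22 Gst genes, -0.11 over the 19 Ugt genes and -0.18 over the 7 Sult genes, beside 0.09 over all genes. With median-of-ratios scaling these were 0.16, -0.21, -0.29 and -0.01, so under that scaling each family kept the sign of its median. That scaling also moved the split of all calls at the threshold from 69.9% to 51.6% higher, with 608 genes higher and 571 lower. Among members 6 were higher and 9 lower with that scaling, in place of 6 and 7. The family medians also depended on single mice. Without knockdown 1, the lowest knockdown mouse for 15 of 19 Ugt genes, the Ugt median turned positive. Without control 2, the lowest control for 16 of 22 Gst genes, the Gst median was smaller but stayed positive. Differences between the families were described and not tested.

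**Figure D2:**
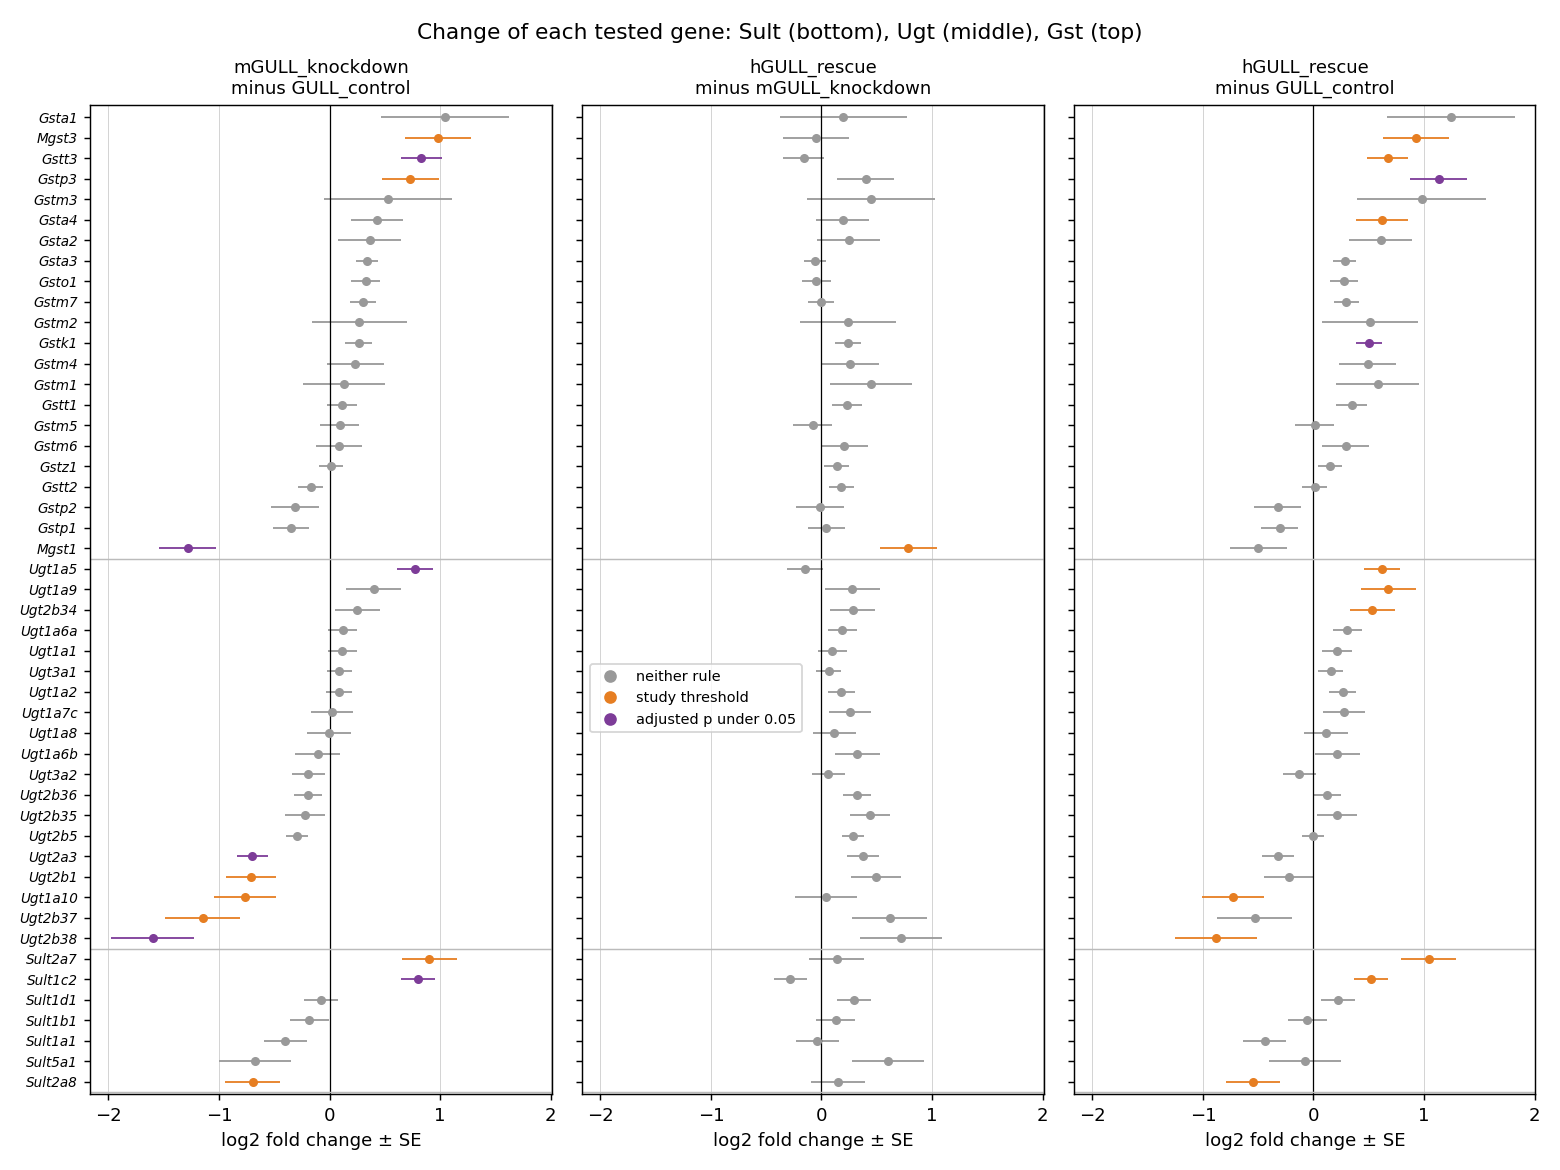
Log2 fold change with its SE for each tested gene in the 3 comparisons, Gst at the top, Ugt in the middle and Sult at the bottom, coloured by the rule that was passed. In knockdown minus control, Ugt2b38 (-1.60) and Mgst1 (-1.28) lie farthest to the left among the genes with an adjusted p under 0.05; with median-of-ratios scaling the small positive values of 6 genes in knockdown minus control (Ugt1a7c, Ugt1a2, Gstm5, Gstm6, Gstz1 and Ugt3a1), 4 in rescue minus knockdown (Ugt1a10, Ugt3a1, Ugt3a2 and Gstp1) and 6 in rescue minus control (Ugt1a8, Gstm5, Ugt2b36, Gstt2, Gstz1 and Ugt3a1) turn negative.

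In knockdown against control mice, the largest change in mean level belonged to Mgst1. It encodes a membrane-bound glutathione transferase and peroxidase of the endoplasmic reticulum and outer mitochondrial membrane. Mgst1 stood at 2458, 2278, 2857 and 2716 TPM in the control mice, 732, 844, 2097 and 951 TPM in the knockdown mice and 1736, 1637, 1920.3 and 2006 TPM in the rescue mice. All knockdown mice lay below all control mice, but knockdown 3 was far above the other 3 and above every rescue mouse. The mean fell from 2577 ± 259 TPM to 1156 ± 634 TPM (SD, n = 4; log2 fold change -1.28, SE 0.26, adjusted p = 0.0229, limma). Without knockdown 3 the fold change was -1.62 with an adjusted p of 0.000255, and without control 2, 3 or 4 or knockdown 2 or 4 the adjusted p ranged from 0.0505 to 0.0724. In bulk liver RNA, fewer cells of a kind and less RNA per cell cannot be told apart.

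The theta-class gene Gstt3, whose class acts on small halogenated and epoxide compounds, moved the other way. Gstt3 read 18.7, 11.4, 23.1 and 22.8 TPM with the control virus, 33.8, 39.5, 33.4 and 27.7 TPM after knockdown and 30.3, 32.3, 26.4 and 30.4 TPM after rescue. The lowest knockdown mouse was above the highest control mouse, and the rescue mice were also all above the controls. Its mean rose from 18.98 ± 5.47 TPM to 33.6 ± 4.81 TPM (SD, n = 4; log2 fold change 0.83, SE 0.19, adjusted p = 0.0344). The call was lost without knockdown 1 (adjusted p 0.0597) or knockdown 2 (0.0944), and without rescue 1, 2 or 4, with values of 0.0520 to 0.0526. Of its 4050 transcript windows of 50 bases, 487 also occur in another annotated gene, so part of its value is uncertain.

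A pair of further Gst genes passed the study threshold without an adjusted p under 0.05. Mgst3, a microsomal relative of Mgst1 that acts on lipid peroxides, read 30.6, 11.5, 21.6 and 24.9 TPM in controls, 31.2, 72.3, 46.5 and 29.96 TPM in knockdown mice and 39.1, 40.01, 34.9 and 50.2 TPM in rescue mice. Knockdown 2 was the highest mouse and control 2 the lowest, and control 1 lay between the knockdown mice (log2 fold change 0.98, SE 0.30, adjusted p = 0.0900; 0.71 without control 2 and 0.72 without knockdown 2). Gstp3, a pi-class gene, read 117, 55.4, 41.99 and 76.4 TPM with the control virus, 136, 112, 123.1 and 86.3 TPM after knockdown and 146, 174, 163 and 119.7 TPM after rescue. Control 1 was well above the other controls and overlapped the knockdown group (log2 fold change 0.73, SE 0.26, adjusted p = 0.132). Without control 1 the log2 fold change of Gstp3 was 0.99 and the adjusted p 0.0227.

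The 2 most abundant Gst genes, Gstm1 and Gstp1, passed neither rule in this comparison. Gstm1, the main cytosolic mu-class enzyme, read 8619, 3001, 5586 and 8477 TPM in controls, 3824, 11903, 7546 and 5095 TPM in knockdown mice and 7964, 9010.3, 7872 and 10819 TPM in rescue mice. Control 2 and knockdown 1 were low and knockdown 2 was high, so the groups overlapped widely (log2 fold change 0.13, SE 0.37, adjusted p = 0.889). Its sign turned without control 2 (-0.20) or knockdown 2 (-0.16). Gstp1, the pi-class enzyme that is abundant in male mouse liver, read 4809, 3398, 3164 and 3182 TPM with the control virus, 3411, 2220.4, 3237 and 2539 TPM after knockdown and 2915, 2829, 3011 and 2841 TPM after rescue. Control 1 was far above the other controls, and the groups overlapped (log2 fold change -0.35, SE 0.17, adjusted p = 0.260). Near-identical copies blur Gstp1, which shares 31.0% of its windows with other genes, mainly Gstp2. Outside the set, the pseudogene Gstp-ps had a mean of 1787 TPM in control mice. Gstp1, Gstp2 and Gstp-ps summed to 5574 ± 1167 TPM in control, 4337 ± 931 TPM in knockdown and 4337 ± 132 TPM in rescue mice. Control 1 was at 7303 TPM and the other controls at 4807 to 5248 TPM. The knockdown mice, at 3322 to 5357 TPM, overlapped the controls, and the rescue mice lay below every control.

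All 7 Gstm genes and all 4 Gsta genes had a positive log2 fold change in knockdown minus control mice, beside 65.5% of all genes. They gave no call at either rule. At an unadjusted p under 0.05 by limma, 1 Gstm gene (14.3%) and 1 Gsta gene (25%) were higher, beside 15.4% of all genes. The Gstm median was 0.23 and the Gsta median 0.40. With median-of-ratios scaling they were 0.12 and 0.29, and without control 2 they were -0.01 and 0.25, so the Gstm median lost its sign with that mouse. With the scaling Gstm5 (-0.01) and Gstm6 (-0.03) turned negative, and without control 2 Gstm1 (-0.20), Gstm3 (-0.01), Gstm4 (-0.02) and Gstm6 (-0.01) did, while all 4 Gsta genes stayed positive in both. Without knockdown 2, Gstm1, Gstm2 and Gstm6 turned negative, as did Gstm5 without control 3 and Gstm6 without knockdown 3. Without control 1, Gsta1, Gsta2 and Gsta4 passed the study threshold, as did Gsta1 and Gsta4 without knockdown 4, and without knockdown 1 Gstm7 had an adjusted p of 0.0284. Gsta1, an alpha-class enzyme known to be induced by antioxidants, had the widest range: 98.6, 9.88, 18.3 and 38.3 TPM in the control mice, 53.1, 121, 79.6 and 26.9 TPM in the knockdown mice and 64.8, 77.1, 73.5 and 66.5 TPM in the rescue mice. Control 1 was above every mouse but knockdown 2 while control 2 was the lowest of all, and the log2 fold change of 1.04 came with an SE of 0.58 (adjusted p = 0.335). It was 1.62 without control 1 and 0.56 without control 2. Gsta1 shares 91.8% of its windows with other genes, and its split from them is uncertain. Gsta3, an alpha-class enzyme that detoxifies aflatoxin epoxide and the most abundant of its class, read 753, 611, 696 and 628 TPM in controls, 739, 972, 907 and 794 TPM in knockdown mice and 853, 809.8, 797 and 799 TPM in rescue mice. Control 1 overlapped knockdown 1, and the other knockdown mice were above all controls (log2 fold change 0.34, SE 0.10, adjusted p = 0.0849; adjusted p 0.0473 without control 1).

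Gstt1, Gsto1, Gstz1 and Gstk1, each the most abundant of its subfamily, passed neither rule after knockdown. Gstt1, a theta-class enzyme, averaged 206 ± 32.9 TPM in control and 224 ± 38.5 TPM in knockdown mice. The omega-class Gsto1, which reduces dehydroascorbate, averaged 104 ± 13.8 and 131 ± 20.9 TPM. Gstz1, the maleylacetoacetate isomerase of tyrosine breakdown, averaged 227 ± 23.99 and 230.3 ± 33.95 TPM. The kappa-class Gstk1 of mitochondria and peroxisomes averaged 144 ± 18.3 and 173 ± 24.7 TPM. Their fold changes were 0.11, 0.33, 0.01 and 0.26, and that of Gstz1 turned to -0.10 with median-of-ratios scaling. At an unadjusted p under 0.05, Gsto1 and Gstk1 were higher.

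The Ugt genes lower after knockdown, apart from Ugt1a10, lie together. Ugt2a3 and the Ugt2b genes form a cluster on chromosome 5, in the order Ugt2b34, Ugt2b1, Ugt2b35, Ugt2b36, Ugt2b5, Ugt2b37, Ugt2a3 and Ugt2b38, and glucuronidate steroids, bile acids and drugs. Promoters are shown for the 7 that passed a rule after knockdown or are among the 3 most abundant Ugt genes, which leaves out Ugt2b35. The 250 bases before the start were taken from the RefSeq promoter table (GRCm38.p6), in which 59 of the 67 members had an entry and gave 71 windows. They are printed 5′ to 3′ on the gene's strand for Ugt2b5 (chr5:87140341-87140590, minus strand), Ugt2b36 (chr5:87092556-87092805, minus strand), Ugt2b37 (chr5:87254789-87255038, minus strand), Ugt2b38 (chr5:87424204-87424453, minus strand), Ugt2b1 (chr5:86926504-86926753, minus strand), Ugt2b34 (chr5:86906938-86907187, minus strand) and Ugt2a3 (chr5:87337196-87337445, minus strand), with matches to 4 motifs in capitals. The motifs, searched on both strands, were AGGTCA (a motif that nuclear receptors recognise), TGACNNNGC (an antioxidant response element core), GCGTG (an Ah receptor core) and TTCNNNGAA (a STAT5 core).
Ugt2b5: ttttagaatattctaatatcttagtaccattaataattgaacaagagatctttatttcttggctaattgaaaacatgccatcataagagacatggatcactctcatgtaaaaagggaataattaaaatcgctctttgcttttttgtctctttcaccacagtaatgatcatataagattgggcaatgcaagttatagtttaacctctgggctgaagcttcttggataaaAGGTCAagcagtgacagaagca
Ugt2b36: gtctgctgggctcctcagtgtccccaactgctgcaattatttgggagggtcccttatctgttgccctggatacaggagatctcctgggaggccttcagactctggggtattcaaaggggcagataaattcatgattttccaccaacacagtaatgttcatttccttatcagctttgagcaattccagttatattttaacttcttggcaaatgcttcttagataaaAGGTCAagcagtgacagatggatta
Ugt2b37: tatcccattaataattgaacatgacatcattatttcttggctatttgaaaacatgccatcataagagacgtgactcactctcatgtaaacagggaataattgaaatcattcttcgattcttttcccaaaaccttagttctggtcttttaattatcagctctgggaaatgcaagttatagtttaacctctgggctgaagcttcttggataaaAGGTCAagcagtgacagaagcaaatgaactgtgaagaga
Ugt2b38: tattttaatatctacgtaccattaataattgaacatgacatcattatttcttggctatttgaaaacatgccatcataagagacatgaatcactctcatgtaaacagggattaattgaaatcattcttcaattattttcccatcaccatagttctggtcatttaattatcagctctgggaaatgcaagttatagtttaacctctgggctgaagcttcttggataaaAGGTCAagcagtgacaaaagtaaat
Ugt2b1: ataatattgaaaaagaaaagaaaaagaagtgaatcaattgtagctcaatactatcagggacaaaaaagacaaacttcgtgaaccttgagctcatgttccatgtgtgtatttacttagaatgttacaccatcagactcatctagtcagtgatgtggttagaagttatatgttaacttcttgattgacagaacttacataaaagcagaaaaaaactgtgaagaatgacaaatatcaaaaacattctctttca
Ugt2b34: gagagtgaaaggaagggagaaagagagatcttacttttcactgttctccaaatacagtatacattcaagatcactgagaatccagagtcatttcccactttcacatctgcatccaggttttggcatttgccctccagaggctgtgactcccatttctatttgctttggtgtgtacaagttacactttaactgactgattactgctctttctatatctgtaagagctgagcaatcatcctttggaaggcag
Ugt2a3: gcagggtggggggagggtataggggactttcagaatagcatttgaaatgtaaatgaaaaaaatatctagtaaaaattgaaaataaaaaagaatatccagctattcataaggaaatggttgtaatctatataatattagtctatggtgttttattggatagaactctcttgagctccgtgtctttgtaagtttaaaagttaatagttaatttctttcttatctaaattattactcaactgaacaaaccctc

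AGGTCA was present in 5 of the 7 Ugt2b windows (71.4%) and in 4607 of all 32851 promoter windows of that length (14.02%). It lay 22 bases before the start in Ugt2b5, 25 in Ugt2b36 and Ugt2b38, 39 in Ugt2b37 and 215 in Ugt2b35, each read on the gene's strand. Ugt2b1, Ugt2b34 and Ugt2a3, of which Ugt2b1 and Ugt2a3 were lower after knockdown, do not hold it. Over the families, it was present in 7 of 19 Ugt windows (36.8%), 1 of 32 Gst windows (3.12%) and 3 of 20 Sult windows. Over all members it was in 11 of 71 windows (15.5%), near the share of all promoter windows. TGACNNNGC, GCGTG and TTCNNNGAA were in 5.63%, 16.9% and 5.63% of the 71, beside 10.2%, 28.2% and 7.02% of all promoter windows. Each of these 3 was in 0 of the 7 Ugt2b windows. The Ugt2b copies share ancestry, so their windows are not separate observations, and a match is a string of letters, not a binding site.

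Ugt2a3 read 324, 372, 452 and 328 TPM with the control virus, 179, 201, 269.8 and 265 TPM after knockdown and 288, 265, 308 and 313 TPM after rescue. The highest knockdown mouse was below the lowest control mouse, and the rescue mice were between, overlapping the knockdown mice and lying below every control. The mean fell from 369 ± 59.3 TPM to 229 ± 45.5 TPM (SD, n = 4; log2 fold change -0.70, SE 0.14, adjusted p = 0.0253). Without control 2 (0.0689), control 3 (0.0740) or knockdown 2 (0.0760) the adjusted p exceeded 0.05.

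Ugt2b38 showed the largest fold change of the called members at a low level. Its values were 7.55, 19.7, 24.1 and 15.7 TPM in the control mice, 3.64, 2.69, 3.41 and 10.6 TPM in the knockdown mice and 5.86, 8.69, 10.4 and 7.503 TPM in the rescue mice. Knockdown 4 was about 3 times the other knockdown mice and above control 1, so the groups overlapped. From 16.8 ± 7.05 TPM the mean fell to 5.09 ± 3.71 TPM (SD, n = 4; log2 fold change -1.60, SE 0.37, adjusted p = 0.0396). This call held in 2 of the 12 fits with 1 mouse left out, those without control 1 (0.0150) and without knockdown 4 (0.0133). In the others the adjusted p ranged from 0.0532 to 0.114. Ugt2b38 shares 37.4% of its windows with other genes, mainly Ugt2b5, which was far more abundant.

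Of the 7 Ugt2b genes, 3 (42.9%) were lower at the threshold and none was higher, beside 2.3% and 5.35% of all genes. Among the 7, 1 had a positive fold change (14.3%, beside 65.5% of all genes). Their median was -0.29, against -0.40 with median-of-ratios scaling, and it stayed between -0.35 and -0.25 with any 1 mouse left out. Ugt2b37, a close neighbour of Ugt2b38 at a similar level, read 5.99, 5.54, 9.64 and 14.4 TPM in controls, 2.35, 5.25, 1.56 and 4.79 TPM in knockdown mice and 5.28, 5.603, 3.42 and 8.31 TPM in rescue mice. Every knockdown mouse was below every control (log2 fold change -1.15, SE 0.34, adjusted p = 0.0831). Ugt2b1 read 425, 547, 737 and 658 TPM with the control virus, 236, 310.1, 446 and 479.5 TPM after knockdown and 463, 408, 543 and 597 TPM after rescue. Knockdown 1 and 2 were lowest, and knockdown 3 and 4 overlapped control 1 (log2 fold change -0.71, SE 0.23, adjusted p = 0.103).

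The 3 most abundant Ugt genes, Ugt2b5, Ugt2b36 and Ugt2b34, passed neither rule after knockdown. Ugt2b5, the leading Ugt gene, read 1654, 1474, 1541 and 1566 TPM in controls, 1155, 1177, 1397 and 1376 TPM in knockdown mice and 1677, 1373, 1562 and 1607 TPM in rescue mice. All knockdown mice were below all controls by a small margin, and the rescue mice spanned the control range (log2 fold change -0.29, SE 0.10, adjusted p = 0.121). Ugt2b36 read 933, 904, 1086 and 983 TPM with the control virus, 667, 964, 813 and 1003 TPM after knockdown and 1184, 974, 1043 and 1054 TPM after rescue. Knockdown and control mice overlapped (log2 fold change -0.20, SE 0.13, adjusted p = 0.422). Ugt2b34 read 464, 302, 462 and 460.2 TPM in controls, 366, 733, 414 and 541 TPM in knockdown mice and 666, 628, 548 and 573 TPM in rescue mice. Control 2 was low and knockdown 2 high, and the fold change was above 0 (log2 fold change 0.25, SE 0.20, adjusted p = 0.527), falling to 0.10 without control 2 and 0.06 without knockdown 2. Since Ugt2b5, Ugt2b37 and Ugt2b38 share sequence, they were also summed: 1668, 1499, 1574 and 1596 TPM in the control mice, 1161, 1185, 1402 and 1391 TPM in the knockdown mice and 1688, 1388, 1576 and 1623 TPM in the rescue mice. Ugt2b5 makes up nearly all of that sum, so its order of the mice repeats that of Ugt2b5.

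In the Ugt1a subfamily each gene splices its own first exon to exons shared by all. At an adjusted p under 0.05, 1 of its 9 genes rose (11.1%, beside 2.44% of all genes). Ugt1a5 read 38.3, 33.9, 36.8 and 37.9 TPM in the control mice, 41.9, 76.04, 82.5 and 61.4 TPM in the knockdown mice and 62.6, 55.2, 54.98 and 55.4 TPM in the rescue mice. The 4 controls lay close together and every knockdown mouse was above them, knockdown 1 by the least. The mean rose from 36.7 ± 1.99 TPM to 65.5 ± 18.04 TPM (SD, n = 4; log2 fold change 0.77, SE 0.16, adjusted p = 0.0275). Without control 2, 3 or 4 or knockdown 2 or 4 its adjusted p ranged from 0.0536 to 0.0808, and without knockdown 1 it was 0.00279. Ugt1a10, near the filter, read 2.13, 4.84, 2.55 and 2.84 TPM in controls, 0.535, 1.04, 2.13 and 2.03 TPM in knockdown mice and 1.21, 0.815, 1.37 and 2.503 TPM in rescue mice. No knockdown mouse reached the lowest control, and the change passed the threshold alone (log2 fold change -0.77, SE 0.28, adjusted p = 0.144), which it missed without control 2 or knockdown 1. Ugt1a1, the bilirubin-conjugating enzyme and the most abundant of the 9, averaged 243 ± 36.1 TPM in control and 264 ± 40.6 TPM in knockdown mice. The 9 genes share 57.4% to 82.9% of their windows, so how reads were divided among them is uncertain.

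The Ugt3a enzymes, which use sugars other than glucuronic acid, gave no call by limma, nor an unadjusted p under 0.05. Ugt3a2, the more abundant of the 2, averaged 263 ± 50.04 TPM in control, 229.6 ± 41.1 TPM in knockdown and 237 ± 19.03 TPM in rescue mice.

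Among sulfotransferases, the rise was in a minor gene. Sult1c2, a phenol sulfotransferase, read 3.84, 5.37, 4.14 and 3.27 TPM in controls, 7.995, 8.46, 7.63 and 7.49 TPM in knockdown mice and 8.73, 5.64, 5.74 and 5.55 TPM in rescue mice. The lowest knockdown mouse exceeded the highest control, and the rescue mice were also above all controls. Its mean rose from 4.15 ± 0.887 TPM to 7.896 ± 0.432 TPM (SD, n = 4; log2 fold change 0.80, SE 0.15, adjusted p = 0.0181). The adjusted p exceeded 0.05 without control 3 (0.0520), control 4 (0.0543) or knockdown 2 (0.0508). Sult2a7 read 1.32, 0.365, 0.664 and 2.08 TPM in the control mice, 2.69, 3.92, 1.89 and 2.79 TPM in the knockdown mice and 3.57, 3.59, 2.18 and 3.37 TPM in the rescue mice. Control 4 was above knockdown 3, and the other knockdown mice were above all controls (log2 fold change 0.90, SE 0.25, adjusted p = 0.0679). The adjusted p was 0.0465 without control 4 and 0.0427 without knockdown 3.

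Of the 3 most abundant Sult genes, 1 passed the study threshold, in the lower direction. Sult2a8, which sulfates bile acids, read 382, 607, 624 and 450.1 TPM with the control virus, 284, 188, 382 and 462 TPM after knockdown and 384, 287, 393 and 331 TPM after rescue. Knockdown 2 was the lowest mouse, and knockdown 4 overlapped the controls, and the fold change passed the study threshold alone (log2 fold change -0.70, SE 0.25, adjusted p = 0.134), which it missed without knockdown 2 (-0.45). Sult1a1 read 214, 256, 262 and 219 TPM in controls, 145, 164, 278 and 155 TPM in knockdown mice and 129, 186, 208 and 185 TPM in rescue mice. Knockdown 3 was above every control while the other 3 knockdown mice were below every control (log2 fold change -0.40, SE 0.19, adjusted p = 0.270). Without knockdown 3 its log2 fold change was -0.61 and the adjusted p 0.0326. Sult1d1 averaged 134 ± 27.7 TPM in control and 128 ± 25.8 TPM in knockdown mice, Sult1b1, which acts on thyroid hormone, 21.3 ± 1.82 and 19.1 ± 5.78 TPM, and Sult5a1 11.6 ± 3.48 and 7.54 ± 4.65 TPM. None of the 3 passed a rule, though Sult5a1 passed the study threshold without control 4 or knockdown 4.

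**Figure D3:**
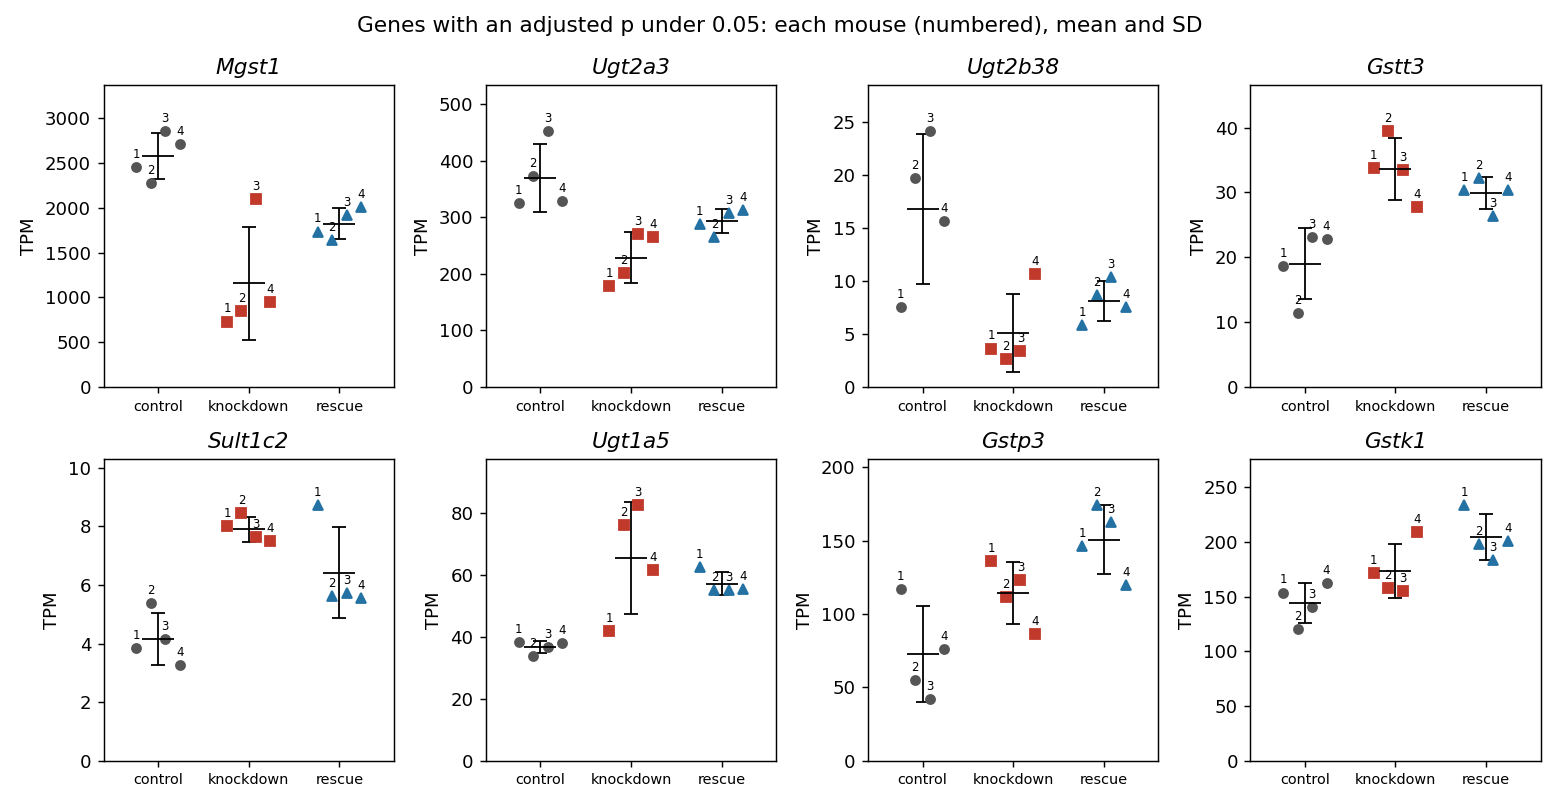
TPM in each mouse (points numbered by replicate), with the mean and SD of each group, for the 8 members with an adjusted p under 0.05 in a comparison. In Mgst1, knockdown 3 at 2097 TPM lies apart from the other knockdown mice, at 732 to 951 TPM; in Ugt1a5, Sult1c2 and Gstt3 every knockdown mouse lies above every control mouse.

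Rescue against knockdown mice gave few calls. At the study threshold 1 of 48 members was higher (2.08%; 2.33% of all genes tested) and 0 were lower (0.672% of all genes). At an adjusted p under 0.05 limma called 0 members in either direction, as it called 0 of the 16378 genes (0% higher and 0% lower). At an unadjusted p under 0.05, 5 members were higher and 0 lower, beside 9.32% and 1.40% of all genes. These shares are near the background and are not a result about the members. The 1 member was Mgst1, at 1156 ± 634 TPM in knockdown and 1825 ± 168 TPM in rescue mice (SD, n = 4; log2 fold change 0.79, SE 0.26, adjusted p = 0.379). It was also the only member to pass the study threshold in opposite directions in this comparison and in knockdown against control mice. The other 3 of the knockdown mice were below all rescue mice and knockdown 3 was above them. Without knockdown 3 the log2 fold change was 1.12 and the adjusted p 0.0347. Each rescue mouse also stayed below each control for Mgst1 (log2 fold change -0.50, SE 0.26, adjusted p = 0.242). Without knockdown 3 its adjusted p was 0.0450, and over the alternatives it ranged from 0.0309 to 0.403, lowest with only the 2 groups compared. Median-of-ratios scaling gave a log2 fold change of -0.70, past the study threshold. With any 1 mouse left out, between 1 and 4 members were higher at the threshold in rescue against knockdown mice, most without knockdown 4, and 0 were lower.

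Most members had a positive fold change in this comparison, as did most genes. It was above 0 in 15 of 22 Gst, 18 of 19 Ugt and 5 of 7 Sult genes, and in 70.9% of all genes. The medians were 0.20 for Gst, 0.28 for Ugt, 0.14 for Sult and 0.09 for all genes, and 0.10, 0.18, 0.06 and 0.01 with median-of-ratios scaling. Among subfamilies with at least 4 tested genes, Ugt2b had the largest median, 0.44 (0.34 with that scaling), and all 7 were above 0. Without knockdown 1, the Ugt median was 0.09 and the Ugt2b median 0.25. That scaling moved the split of all calls from 77.6% to 60.5% higher, with 250 genes higher and 163 lower.

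For the other members that changed after knockdown, the rescue values were as follows. Ugt2a3 averaged 294 ± 21.7 TPM in rescue mice, a log2 fold change of 0.38 from knockdown (adjusted p = 0.415). Ugt2b38 averaged 8.11 ± 1.91 TPM (0.72, adjusted p = 0.507). Gstt3 averaged 29.8 ± 2.47 TPM (-0.16, adjusted p = 0.752). All of these groups overlapped the knockdown mice. Sult1c2 averaged 6.42 ± 1.55 TPM (-0.28, adjusted p = 0.519), with rescue 1 above every knockdown mouse and the other 3 below them. Ugt1a5 averaged 57.02 ± 3.696 TPM (-0.15, adjusted p = 0.728), and knockdown 1 lay below all 4 rescue mice. An adjusted p above 0.05 here does not show that the levels were equal.

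Rescue against control mice gave more members higher than lower. At the study threshold 10 of 48 members were higher (20.8%; 6.84% of all genes tested) and 3 lower (6.25%; 0.641% of all genes). Those higher were Gstp3, Gstk1, Gstt3, Gsta4, Mgst3, Sult1c2, Sult2a7, Ugt1a5, Ugt1a9 and Ugt2b34, and those lower were Ugt2b38, Ugt1a10 and Sult2a8. At an adjusted p under 0.05, 2 rose (4.17%; 2.12% of all genes) and 0 fell by limma (0.0244% of all genes). At an unadjusted p under 0.05, 15 were higher and 5 lower (31.25% and 10.4%), beside 24.2% and 1.09% of all genes. This comparison depends on scaling. Median-of-ratios scaling left 3 members higher and 8 lower at the threshold, a split of 27.3% higher in place of 76.9%, and no member at an adjusted p under 0.05. For all genes it left 481 higher and 240 lower, 66.7% higher in place of 91.4%.

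By family, 5 of 22 Gst genes were higher (22.7%) and 0 lower at the threshold, beside 6.84% and 0.641% of all genes. Of 19 Ugt genes, 3 were higher (15.8%) and 2 lower (10.5%), and of 7 Sult genes 2 were higher (28.6%) and 1 lower (14.3%). By limma, 8 Gst genes were higher (36.4%; 24.2% of all genes) and 0 lower at an unadjusted p under 0.05. At that rule 5 Ugt genes were higher (26.3%) and 3 lower (15.8%), beside 1.09% of all genes lower. Of the Sult genes 2 were higher and 2 lower (28.6% each). The medians were 0.42 for Gst, 0.16 for Ugt and -0.05 for Sult, beside 0.17 for all genes. After median-of-ratios scaling the Ugt median turned to -0.05, with 0.21 for Gst, -0.25 for Sult and -0.01 for all genes. Without control 2, 5 members were higher at the threshold and 0 lower, and the Sult median turned to 0.09.

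The 2 members that rose were Gst genes. Gstp3 averaged 72.7 ± 32.8 TPM in control and 151 ± 23.8 TPM in rescue mice (SD, n = 4; log2 fold change 1.13, SE 0.26, adjusted p = 0.0465). All rescue mice were above all controls, the lowest rescue mouse by a margin of less than 3 TPM over control 1. With median-of-ratios scaling the log2 fold change was 0.93 and the adjusted p 0.143 (range over all alternatives 0.0339 to 0.143). Gstk1 read 154, 120.3, 140.4 and 162 TPM in the control mice, 171, 158, 155 and 209 TPM in the knockdown mice and 234, 198, 184 and 201 TPM in the rescue mice. Every rescue mouse was above every control, and the knockdown mice overlapped both (log2 fold change 0.50, SE 0.12, adjusted p = 0.0498). With median-of-ratios scaling its log2 fold change was 0.30 and the adjusted p 0.271 (range 0.0300 to 0.271). Both calls were lost in 8 of the 12 fits with 1 mouse left out, those without control 2, 3 or 4, knockdown 4 or any rescue mouse, with adjusted p from 0.0554 to 0.150 for Gstp3 and 0.0532 to 0.161 for Gstk1.

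Some members called after knockdown also passed the study threshold in rescue against control mice. Gstt3 (log2 fold change 0.67, adjusted p = 0.0677), Sult1c2 (0.52, 0.0774), Ugt1a5 (0.62, 0.0614) and Sult2a7 (1.04, 0.0508) did so in the higher direction, with no overlap between these groups. The adjusted p fell under 0.05 for Sult2a7 without control 1 or knockdown 1, 2 or 3, and for Ugt1a5 without knockdown 1, 2 or 3. The study threshold was missed by Gstt3 without control 2 (0.46), and by Sult1c2 without control 1 (0.49), control 4 (0.43) or rescue 1 (0.38). With median-of-ratios scaling the fold changes of Gstt3 (0.48), Sult1c2 (0.35) and Ugt1a5 (0.42) fell short of the threshold. Ugt2b38 (-0.88, 0.165) and Sult2a8 (-0.55, 0.190) passed it in the lower direction, with overlap. Ugt2b38 missed it without control 2, 3 or 4 or rescue 1 or 4 (p 0.0589 to 0.107), and Sult2a8 without control 2 or 3, knockdown 1 or rescue 1, 2 or 4 (p 0.0526 to 0.123). Ugt2b5 was at 1555 ± 129.9 TPM in rescue mice and 1559 ± 74.8 TPM in controls (log2 fold change -0.01). Ugt2b34 was at 604 ± 53.1 TPM against 422 ± 80.1 TPM (log2 fold change 0.53, SE 0.20, adjusted p = 0.134), with every rescue mouse above every control, and median-of-ratios scaling brought it to 0.33, short of the threshold. It also missed the threshold without control 2 (0.38) or rescue 1 (0.49). Of the others, Gsta4 and Ugt1a9 missed it without control 2, and Ugt1a10 without control 2 or rescue 1 or 2. Without control 1, the adjusted p of Gsta1 (0.0433) and Gsta4 (0.0315) was under 0.05.

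Summed over subfamilies, the levels showed where single genes carried a change. Mgst genes summed to 2599.9 ± 262 TPM in control, 1202 ± 635 TPM in knockdown and 1867 ± 171 TPM in rescue mice, nearly all of it Mgst1. Gstm genes summed to 7436 ± 3217, 8385 ± 4280.4 and 10366 ± 1435 TPM, and their groups overlapped. Gsta genes summed to 991 ± 212, 1279 ± 214 and 1287 ± 5.39 TPM, with the rescue mice within a span of 13 TPM. Ugt2b genes summed to 3981, 3610.3, 4296 and 4179 TPM in control, 2683, 3686, 3512 and 3779 TPM in knockdown and 4599, 3855, 4202 and 4349 TPM in rescue mice. The rescue mice were all above the knockdown mice, and knockdown 1 was far below the others. Ugt1a genes summed to 515 ± 44.4, 605 ± 93.7 and 659.8 ± 60.3 TPM, and every rescue mouse was above every control. Sult2a genes summed to 517 ± 118, 332 ± 118 and 352 ± 48.7 TPM, with overlap.

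**Figure D4:**
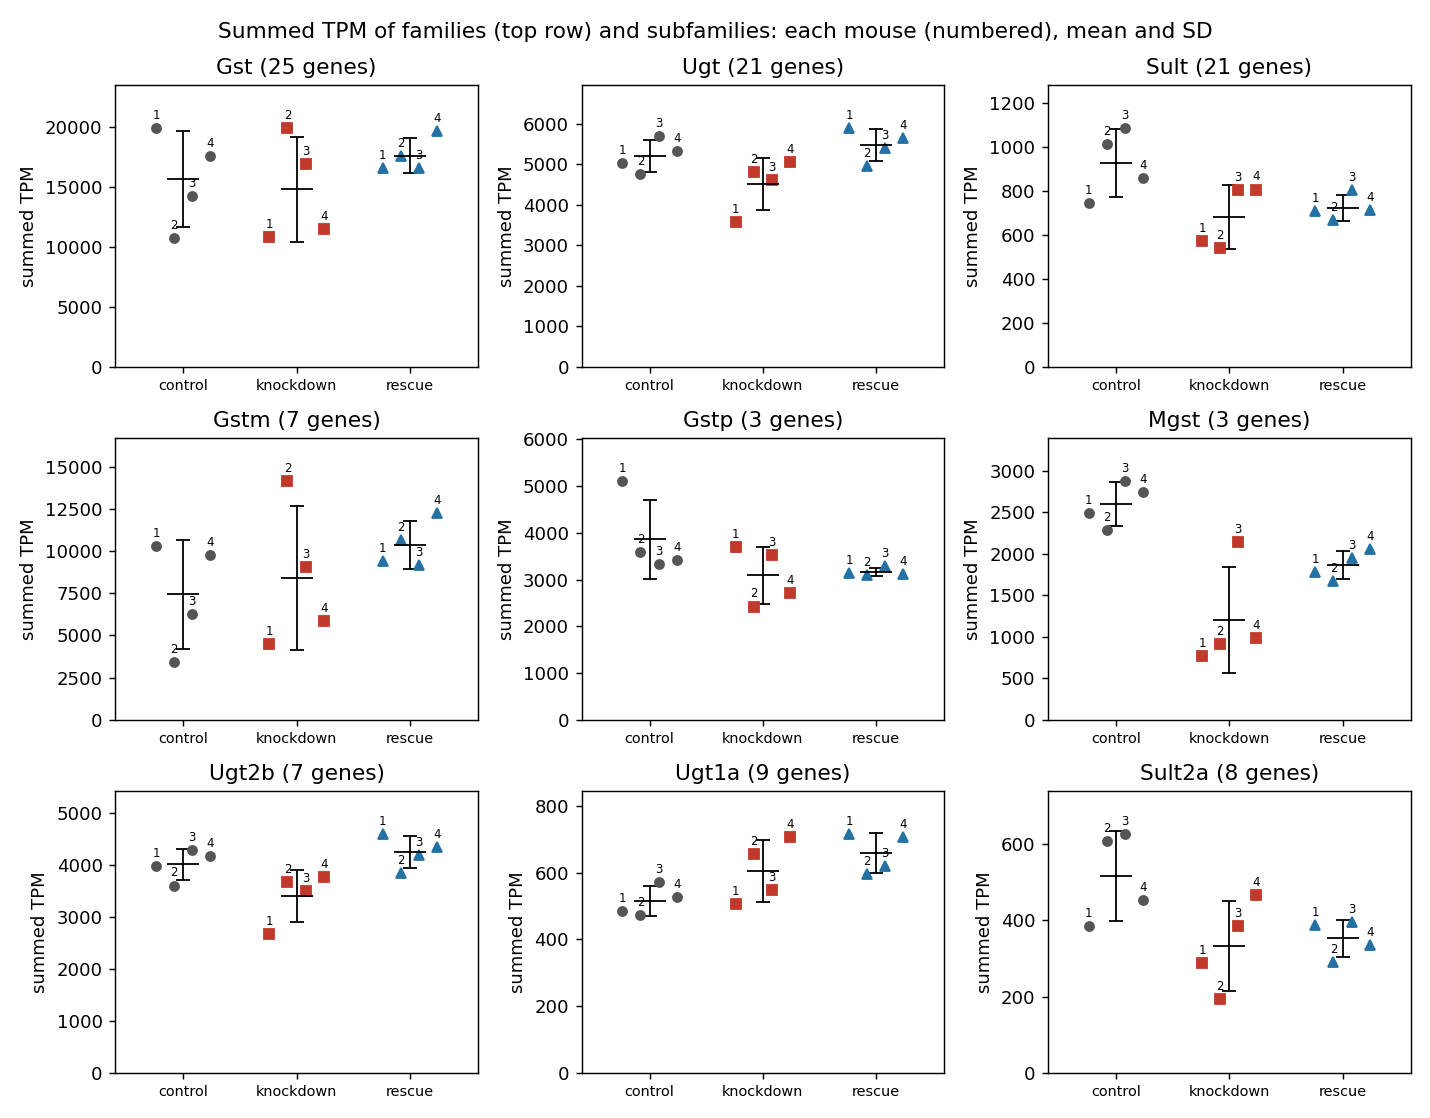
Summed TPM of the 3 families (top) and 6 subfamilies in each mouse (points numbered by replicate), with the mean and SD of each group. The Mgst sum of every knockdown mouse lies below that of every control mouse, and the Gstm sum ranges from 4508 to 14142 TPM within the knockdown group; sums are TPM as deposited, without median-of-ratios scaling.

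Variation between mice of a group was large for these genes. The median SD of log2 values over the 48 members was 0.24 in control, 0.40 in knockdown and 0.16 in rescue mice, and over all genes 0.19, 0.24 and 0.13. Gsta and Gstm genes varied most among controls, with median SDs of 0.60 and 0.58, and least among rescue mice (0.08 and 0.12). Ugt1a genes varied most among knockdown mice (0.48, against 0.11 in controls). Control 2 was the lowest control for all 4 Gsta and 6 of 7 Gstm genes, and control 1 the highest for the same numbers of genes. Over all genes these mice were lowest and highest for 46.8% and 46.2%. Knockdown 1 was the lowest knockdown mouse for 15 of 19 Ugt genes and 6 of 7 Gstm genes, beside 44.3% of all genes.

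**Figure D5:**
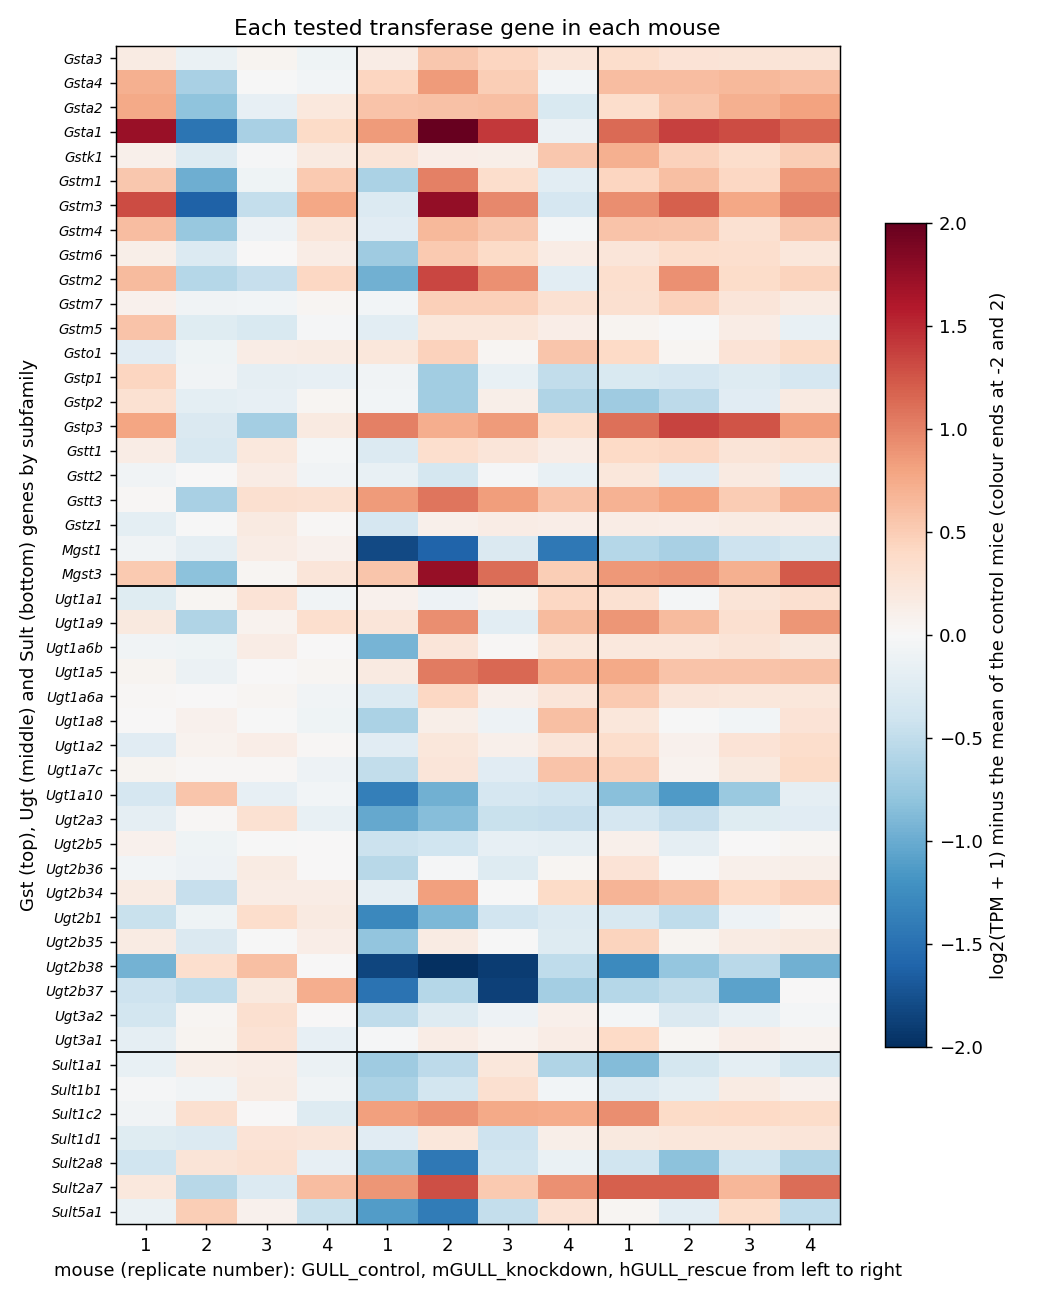
Log2(TPM + 1) minus the mean of the control mice for each tested gene in each mouse, ordered by family and subfamily; red is higher and blue lower, with colours ending at -2 and 2. Control 2 is blue and control 1 red over the Gsta and Gstm genes, Mgst1, Ugt2b38 and Ugt2b37 are blue over the knockdown mice, and Gstt3, Ugt1a5 and Sult1c2 are red there; values are without median-of-ratios scaling, with which the Ugt median in rescue against control mice turns negative.

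Stellate, endothelial and T cell markers ranked controls 1 and 2 as the Gsta and Gstm genes did, as did bile duct and gut markers. So did many of all genes, 46.8% being lowest in control 2 and 46.2% highest in control 1. No other marker list held both ranks. Hepatocyte markers were highest in control 2, Kupffer cell markers in control 4 and red cell markers in control 3. The 5 stellate cell markers, led by Dcn, summed to 174, 83.96, 95.01 and 119 TPM in control, 139, 169.7, 131 and 130.4 TPM in knockdown and 131, 147, 129.6 and 120.0 TPM in rescue mice. Control 1 was highest and control 2 lowest, as for Gsta1, Gstm3 and most genes of those subfamilies. The 5 endothelial markers, led by Stab2, summed to 149, 85.03, 108 and 137 TPM in control, 141, 185, 142 and 159 TPM in knockdown and 136, 147, 139.7 and 166 TPM in rescue mice. The 5 T cell markers, led by Trac, summed to 34.1, 8.54, 10.05 and 19.6 TPM in control, 12.2, 25.7, 26.3 and 25.6 TPM in knockdown and 20.8, 29.5, 21.3 and 18.7 TPM in rescue mice. In both lists control 2 was again the lowest control and control 1 the highest, and none of these 15 genes was listed at 0 in every mouse. Of them, 1 rose after knockdown, the scavenger receptor Stab2 of sinusoidal endothelium (log2 fold change 0.54, SE 0.13, adjusted p = 0.0476), and no other passed a rule in any comparison. Leaving out 1 mouse ended the call of Stab2 without control 2, 3 or 4, knockdown 1, 2 or 4 or rescue 1, 2, 3 or 4 (0.0662 to 0.120). Over the alternatives its adjusted p ranged from 0.0334 to 0.155, highest with only the 2 groups compared. Among knockdown mice, knockdown 1 was the lowest for 6 of 7 Gstm genes and for the endothelial and T cell sums. It was not the lowest for the stellate cell sum. The part of these markers in the values of the transferases was not tested.

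The 5 hepatocyte markers summed to 80421, 109395, 93035 and 73678 TPM in control, 85058, 77670.4, 92439 and 79626 TPM in knockdown and 65259, 73837, 79515 and 71396 TPM in rescue mice, with Alb the most abundant. Of the 5, 2 (Apoa1 and Tat) were lower at the study threshold both after knockdown and in rescue against control mice. At an unadjusted p under 0.05 by limma, 3 of the 5 (60%) were lower in both, beside 4.80% and 1.09% of all genes. The study threshold gave 5.35% of all genes higher and 2.3% lower after knockdown. It gave 0.672% lower in rescue against knockdown and 0.641% lower in rescue against control mice. Markers of Kupffer cells and macrophages (6 genes, led by Cd5l) summed to between 332 and 654 TPM, with Marco lower at the threshold after knockdown and in rescue against control mice. Bile duct markers (6, led by Spp1) summed to between 57.01 and 141 TPM, with Sox9 higher after knockdown. Neutrophil markers (3, led by S100a9) summed to between 85.5 and 261 TPM, with 2 lower in rescue against knockdown mice. B cell markers (3, led by Cd79a) summed to between 2.06 and 5.47 TPM, red cell markers (3, led by Hbb-bs) to between 251 and 709 TPM, and gut epithelium markers (3, led by Fabp2, with Cdx2 listed at 0) to between 96.3 and 188 TPM. These 3 lists gave no call. Pancreatic acinar markers (4, led by Cela2a, with Cpa1 and Ctrb1 listed at 0) and kidney tubule markers (3, led by Umod, with Kap listed at 0) stayed below 1 TPM in sum. Of the zonal lists, the 6 genes around the central vein, led by Cyp2e1, gave no call. Among the 5 around the portal tract, led by Cyp2f2, Hal and Sds were lower at the threshold after knockdown and Sds also in rescue against control mice, and the lipid droplet protein Hsd17b13 rose in rescue against control mice (log2 fold change 0.47, SE 0.10, adjusted p = 0.0426). Leaving out 1 mouse ended the call of Hsd17b13 without control 2, 3 or 4, knockdown 4 or rescue 1, 2, 3 or 4 (0.0554 to 0.142). Median-of-ratios scaling ended it too, at an adjusted p of 0.205 for Hsd17b13 (range over the alternatives 0.0264 to 0.205).

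Other gene lists are read beside the share of all genes at an unadjusted p under 0.05, which was 15.4% higher and 4.80% lower after knockdown, 9.32% and 1.40% in rescue against knockdown mice, and 24.2% and 1.09% in rescue against control mice. A share near these is not a result about a list. Genes that supply the conjugating groups were the first list. Of 14 tested among 16, 2 fell after knockdown at an adjusted p under 0.05 and 0 rose by limma (3 lower and 3 higher at an unadjusted p under 0.05), and the median log2 fold change was 0.18. Slc26a1, a sulfate transporter, read 164, 179, 153 and 154 TPM in controls, 83.00, 67.8, 119 and 91.9 TPM in knockdown mice and 127, 116, 148 and 109 TPM in rescue mice. All knockdown mice were below all controls (log2 fold change -0.87, SE 0.15, adjusted p = 0.0124). The phosphatase Impad1, which clears the nucleotide left when PAPS gives up its sulfate, averaged 44.01 ± 6.09 TPM in control and 31.2 ± 4.77 TPM in knockdown mice (log2 fold change -0.49, SE 0.12, adjusted p = 0.0467). In rescue against knockdown mice limma called 0 genes of the list (4 higher, 28.6%, and 0 lower at an unadjusted p under 0.05), with 1 higher at the threshold. It also called 0 in rescue against control mice (7 higher, 50%, and 1 lower, 7.14%, at an unadjusted p under 0.05). With 1 mouse left out, the adjusted p exceeded 0.05 for Impad1 without control 1, 3 or 4, knockdown 1, 2 or 4 or rescue 1, 2, 3 or 4 (0.0620 to 0.131). Over the alternatives it ranged from 0.00945 to 0.0531 for Slc26a1 and 0.0167 to 0.155 for Impad1, and comparing only the 2 groups ended both calls.

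Of 16 tested among 18 other conjugating and related enzymes, 2 rose after knockdown and 0 fell (5 higher and 1 lower at an unadjusted p under 0.05), with a median of 0.13. The indole methyltransferase Inmt averaged 501 ± 76.2 TPM in control, 922 ± 133 TPM in knockdown and 795 ± 68.4 TPM in rescue mice (log2 fold change 0.88, SE 0.13, adjusted p = 0.00804 after knockdown). Its rise was also called in rescue against control mice (log2 fold change 0.67, SE 0.13, adjusted p = 0.0388). With Ephx1, this made 2 genes of the list that rose there and 0 that fell by limma (6 higher, 37.5%, and 0 lower at an unadjusted p under 0.05), and in rescue against knockdown mice it called 0 (2 higher, 12.5%, and 0 lower). The quinone reductase Nqo2 averaged 55.1 ± 5.85 TPM in control and 78.2 ± 12.01 TPM in knockdown mice (log2 fold change 0.49, SE 0.11, adjusted p = 0.0391). The microsomal epoxide hydrolase Ephx1 rose in rescue against control mice, from 921 ± 98.9 TPM to 1302 ± 74.6 TPM (log2 fold change 0.50, SE 0.12, adjusted p = 0.0478). With 1 mouse left out, the call after knockdown was lost for Nqo2 without control 2, 3 or 4, knockdown 2 or 4 or rescue 1, 2, 3 or 4 (0.0531 to 0.112). The calls in rescue against control mice were lost for Inmt without control 2, 3 or 4, knockdown 4 or rescue 1, 2, 3 or 4 (0.0532 to 0.142), and Ephx1 without control 2, 3 or 4, knockdown 4 or rescue 1, 2, 3 or 4 (0.0648 to 0.160). These calls also ended with median-of-ratios scaling, at an adjusted p of 0.202 for Inmt (range over the alternatives 0.0211 to 0.202) and 0.169 for Ephx1 (range over the alternatives 0.0245 to 0.169). After knockdown the range was 0.00546 to 0.0507 for Inmt and 0.0229 to 0.130 for Nqo2, the highest values with only the 2 groups compared.

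Enzymes and transporters that remove conjugates gave 1 of 13 tested higher after knockdown and 2 in rescue against control mice, with 0 lower in both by limma, beside 2.44% and 2.12% of all genes higher. At an unadjusted p under 0.05, 3 (23.1%) and 6 (46.2%) were higher and 0 lower. In rescue against knockdown mice limma called 0, also at an unadjusted p under 0.05. The lysosomal sulfatase Arsb averaged 22.1 ± 1.91 TPM in control, 32.4 ± 2.26 TPM in knockdown and 32.4 ± 3.69 TPM in rescue mice (log2 fold change 0.53, SE 0.10, adjusted p = 0.0150 after knockdown; 0.53 and 0.0381 in rescue against control mice). The efflux pump Abcb1a averaged 3.32 ± 1.32, 6.71 ± 2.17 and 9.22 ± 1.41 TPM and rose in rescue against control mice (log2 fold change 1.28, SE 0.23, adjusted p = 0.0381). Of 21 tested regulators, 0 of 21 passed an adjusted p under 0.05 after knockdown by limma (6 higher and 1 lower, or 28.6% and 4.76%, at an unadjusted p under 0.05). Rescue against knockdown mice also gave 0 by limma (6 higher, 28.6%, and 0 lower at an unadjusted p under 0.05). In rescue against control mice 2 rose, beside 2.12% of all genes, and at an unadjusted p under 0.05 there were 8 higher (38.1%; 24.2% of all genes) and 0 lower. Nfe2l2, which encodes NRF2, averaged 48.3 ± 5.91 TPM in control and 78.8 ± 9.18 TPM in rescue mice (log2 fold change 0.70, SE 0.15, adjusted p = 0.0432), and Foxa1, a hepatocyte pioneer factor, 19.5 ± 2.53 and 28.3 ± 1.78 TPM (log2 fold change 0.52, SE 0.11, adjusted p = 0.0414). With 1 mouse left out, the call in rescue against control mice was lost for Arsb without control 2, 3 or 4, knockdown 4 or rescue 1, 2, 3 or 4 (0.0532 to 0.142), and Abcb1a without control 2, 3 or 4, knockdown 4 or rescue 1, 2, 3 or 4 (0.0522 to 0.142). Among the regulators the same held for Nfe2l2 without control 2, 3 or 4, knockdown 4 or rescue 1, 2, 3 or 4 (0.0560 to 0.153), and Foxa1 without control 2, 3 or 4, knockdown 4 or rescue 1, 2, 3 or 4 (0.0532 to 0.142). Median-of-ratios scaling ended all 4 calls in rescue against control mice, at an adjusted p of 0.109 for Arsb (range over the alternatives 0.0234 to 0.109), 0.0692 for Abcb1a (range over the alternatives 0.0197 to 0.0692), 0.115 for Nfe2l2 (range over the alternatives 0.0185 to 0.115) and 0.134 for Foxa1 (range over the alternatives 0.0251 to 0.134). For Arsb after knockdown the range was 0.0110 to 0.0550, highest with only the 2 groups compared.

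Since many transferases differ between the sexes, genes known for sex differences were listed as well. All mice were male. Of 17 genes higher in male liver, 3 fell after knockdown and 0 rose at an adjusted p under 0.05 by limma, beside 0.794% and 2.44% of all genes. At an unadjusted p under 0.05, 8 were lower (47.1%) and 3 higher (17.6%), beside 4.80% and 15.4% of all genes. The study threshold gave 7 lower and 3 higher, and the median was -0.46. The pheromone carrier Mup7 averaged 1437 ± 705 TPM in control and 328 ± 263 TPM in knockdown mice (log2 fold change -2.33, SE 0.51, adjusted p = 0.0324), the oxysterol hydroxylase Cyp7b1 582 ± 84.1 and 291 ± 142 TPM (log2 fold change -1.09, SE 0.24, adjusted p = 0.0306), and Selenbp2 had a log2 fold change of -2.15. Of 13 tested genes higher in female liver, 4 rose and 1 fell (6 higher, 46.2%, and 1 lower, 7.69%, at an unadjusted p under 0.05), with a median of 0.39. Cyp2b9, a female-predominant cytochrome P450, read 1.797, 0.497, 0.272 and 0.644 TPM in the control mice, 36.6, 92.8, 3.65 and 15.1 TPM in the knockdown mice and 42.6, 33.9, 4.09 and 13.7 TPM in the rescue mice. Its control mean was 0.802 ± 0.681 TPM, below 1 TPM. Cyp2b9 entered the tests through the other groups, so its call, 1 of the 4, is not read as a result. Every knockdown and rescue mouse was above every control, over a wide range (log2 fold change 3.72, SE 0.83, adjusted p = 0.0332). The others that rose were Cyp4a14 (1.83), the acyl-CoA thioesterase Acot3 (1.67) and the peroxisomal transporter Abcd2 (1.31), and the receptor gene Lifr fell (-0.81). With 1 mouse left out, calls of the male list were lost for Mup7 without control 2, 3 or 4 or knockdown 1 or 2 (0.0586 to 0.0991), and Cyp7b1 without control 2, 3 or 4 or knockdown 1 or 2 (0.0629 to 0.0902). Those of the female list were lost for Cyp2b9 without control 2, 3 or 4, knockdown 1, 2 or 4 or rescue 4 (0.0501 to 0.0942), Cyp4a14 without control 1, 2 or 4, knockdown 1 or 2 or rescue 1, 2, 3 or 4 (0.0607 to 0.120), Acot3 without control 4 or knockdown 2 (0.0560 to 0.0594), and Abcd2 without control 2, 3 or 4, knockdown 1, 2 or 4 or rescue 2 or 4 (0.0550 to 0.107). Comparing only the 2 groups ended the calls of Mup7, Cyp7b1, Cyp2b9, Cyp4a14, Abcd2 and Lifr, and testing without the filter ended these and that of Acot3. In rescue against control mice, 7 of the 13 tested genes of the female list were higher and 0 lower at the study threshold. Of the 17 genes of the male list, 3 were higher and 3 lower there, beside 6.84% and 0.641% of all genes. In that comparison 0 of either list passed an adjusted p under 0.05 by limma (male list 3 higher and 4 lower, female list 7 higher and 1 lower at an unadjusted p under 0.05). In rescue against knockdown mice limma called 0 genes of either list at an adjusted p under 0.05 (3 higher and 1 lower at an unadjusted p under 0.05).

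The calls on members after knockdown depended on the settings. Comparing only the 2 groups ended all 6, and testing all genes without the filter on low values ended all but Sult1c2. The adjusted p over the alternatives ranged from 0.0159 to 0.0908 for Mgst1, 0.0161 to 0.1 for Ugt2a3 and 0.0298 to 0.128 for Ugt2b38. For Gstt3 it ranged from 0.0252 to 0.127, for Ugt1a5 from 0.0181 to 0.112 and for Sult1c2 from 0.0147 to 0.0531. Each fold change kept its sign throughout. Counting the other lists, comparing only the 2 groups ended 17 of the 19 calls on genes named by rule after knockdown, and testing without the filter ended 14. In rescue against control mice, each of no filter, median-of-ratios scaling and rescaling to protein-coding genes ended all 9. Groups of 4 mice give wide errors, levels of RNA say nothing of enzyme amount or activity, and genes that share sequence are known less well than the others.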

How the data were processed

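Liver RNA of 12 male mice was sequenced, and one table of TPM values was used, with all 12 sample columns and every gene of the 67 in the set. The authors trimmed reads with fastp 0.23.2, checked them with FastQC 0.11.8, aligned them with HISAT2 2.2.1.0 to GRCm38.p6, counted them strand-specifically with featureCounts (Subread 2.0) and deposited TPM. Depth per sample is unknown, since TPM keep none, so the precision of low values is unknown too. The filter kept the 16378 genes whose mean over the mice was 1 TPM or more, fitted as log2(TPM + 1) in one model of 3 groups with limma 3.58.1 (R 4.3.3, empirical Bayes with trend). The p-values were adjusted over all genes tested by Benjamini-Hochberg. The study threshold was an absolute log2 fold change above 0.5 with an unadjusted p below 0.05. Other steps used Python 3.11.15, pandas 2.3.3 and matplotlib 3.10.9.

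The alternatives added 0.1 in place of 1 before the logarithm, dropped the filter or raised it to 5 TPM, or used median-of-ratios scaling, rescaling to protein-coding genes, only the 2 groups compared, replicate number as block, and each mouse left out in turn. The code was tested on simulated data. Shared windows of 50 bases were found among same-strand transcripts of GENCODE vM39 (GRCm39), a newer annotation than that of the files. Promoter windows of 250 bases came from RefSeq coordinates.

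Members named by rule were those with an adjusted p under 0.05 in any comparison (at most the 14 of largest fold change), the 3 of highest mean in each family, the highest of each subfamily, and those that passed the study threshold in opposite directions after knockdown and rescue. In other lists, at most 4 with an adjusted p under 0.05 were named. Members and lists were chosen with earlier results of these data known. Ugt2b1, Ugt2b37, Ugt1a10, Gsta1, Mgst3, Sult2a7, Gstm3, Lifr and the marker genes named with a threshold call were chosen after their values were seen. Protein sequences were not used here.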

Additional observations from a re-analysis of the deposited data

Results flagged for a closer look

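In each group of 4, the mouse farthest from the other 3 was compared with the range of the group, for each of the 24 members named by rule and for the summed level of each of the 3 families. A mouse was singled out where its gap to the next exceeded what chance gives in about 1 of 20 groups, and 8 of 81 groups had one. Ugt2b38 was 10.6 TPM in knockdown 4, against 2.69 to 3.64 TPM in the other 3 knockdown mice. In knockdown 3, Mgst1 was 2097 TPM, and in the other 3 mice of the group it was 732 to 951 TPM. Sult1c2 was 8.73 TPM in rescue 1, against 5.55 to 5.74 TPM in the other 3 rescue mice. In rescue 1, Ugt1a5 was 62.6 TPM, and in the other 3 mice of the group it was 54.98 to 55.4 TPM. Gstp1 was 4809 TPM in control 1, against 3164 to 3398 TPM in the other 3 control mice. In knockdown 3, Sult1a1 was 278 TPM, and in the other 3 mice of the group it was 145 to 164 TPM. Ugt2b34 was 302 TPM in control 2, against 460.2 to 464 TPM in the other 3 control mice. In knockdown 1, Gstz1 was 179 TPM, and in the other 3 mice of the group it was 244 to 250.1 TPM.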

How the results depend on the processing

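Depth limits low genes by an unknown amount. In knockdown against control mice, the 3 members higher at an adjusted p under 0.05 became 1 with no filter and 0 with only the 2 groups compared, and the 3 lower became 0 and 0. Without the filter more genes are tested. The cause of the change with only the 2 groups compared was not tested. In rescue against control mice, the 10 members higher at the study threshold became 3 with median-of-ratios scaling and the 3 lower became 8. That scaling divided the rescue mice by 1.049 to 1.124, which lowers their values. It divided control 1 by 1.013 and control 2, 3 and 4 by 0.859, 0.920 and 0.959, which raises the values of the last 3. The 2 higher at an adjusted p under 0.05 became 1 with a pseudocount of 0.1, 0 with no filter, 0 with median-of-ratios scaling, 0 after rescaling to protein-coding genes and 8 with only the 2 groups compared, and the 0 lower became 1 with only the 2 groups compared. The cause of these changes was not tested.

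With the replicate block, 1 member was higher at an adjusted p under 0.05 after knockdown in place of 3 and 4 lower in place of 3, 2 were higher in place of 1 at the study threshold in rescue against knockdown mice, and 0 in place of 2 at an adjusted p under 0.05 in rescue against control mice. Deviations from the group mean correlated at -0.24 to 0.15 between mice of the same number, and the numbers were not taken to pair mice.

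With 1 mouse left out, members higher at an adjusted p under 0.05 after knockdown ranged from 0 (without knockdown 2) to 5 (without control 1), and those lower from 0 (without control 2, control 3 or knockdown 2) to 3. At the study threshold they ranged from 6 to 9 higher and 6 to 8 lower. In rescue against knockdown mice, 1 to 4 were higher at the study threshold (4 without knockdown 4) and 0 to 1 at an adjusted p under 0.05 (1 without knockdown 3). In rescue against control mice, 5 (without control 2) to 13 (without control 1) were higher and 0 to 4 (without rescue 3) lower at the study threshold. At an adjusted p under 0.05, 0 to 5 were higher and 0 to 1 lower (1 without knockdown 3).

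Over the 48 members, median-of-ratios scaling turned 6, 4 and 6 positive log2 fold changes negative in knockdown against control, rescue against knockdown and rescue against control mice. Among genes named by rule, it turned the sign of Gstz1 in knockdown against control mice (-0.0986) and in rescue against control mice (-0.0553), of Gstp1 (-0.0493) and Ugt3a2 (-0.0324) in rescue against knockdown mice, and of Ugt2b36 in rescue against control mice (-0.0815). Among these genes, leaving out 1 mouse turned the sign of further small log2 fold changes. After knockdown the ranges were Gstm1 -0.20 to 0.38, Sult1d1 -0.17 to 0.0360, Gstz1 -0.0535 to 0.13. In rescue against knockdown mice they were Gstp1 -0.0681 to 0.14, Sult2a8 -0.0922 to 0.34, Sult1a1 -0.14 to 0.17, Gsta3 -0.13 to 0.0063, Gsto1 -0.14 to 0.0297, Sult1b1 -0.0203 to 0.30, Ugt3a2 -0.0450 to 0.16, Arsb -0.0515 to 0.0445, Cyp2b9 -1.07 to 0.38. In rescue against control mice they were Ugt2b5 -0.0437 to 0.0522, Sult1b1 -0.13 to 0.0195, Sult5a1 -0.22 to 0.0872. The cause was not tested.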
